A study of Mus musculus with 4 samples.

Results

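Small leucine-rich proteoglycans are secreted matrix proteins built from leucine-rich repeats, and 9 of their genes were followed here across the 2 treatments: Dcn, Lum, Bgn, Fmod, Ogn, Omd, Aspn, Prelp and Podn. They were taken by name from the deposited table of 32230 gene symbols, with earlier results of these data known. Each was listed in the table, and 9 of 9 passed the filter of a mean of at least 1 TPM (transcripts per 1000000, a level already divided by gene length), as did 14621 symbols in all. The samples were mouse embryonic fibroblasts from mid-gestation male embryos homozygous for 4F2A, a transgene that makes Oct4, Sox2, Klf4 and Myc, the factors of reprogramming, when doxycycline is present. Both groups received 2 µg/mL doxycycline for 48 h in a medium with serum replacement and LIF, and polyadenylated RNA was sequenced on day 2. The groups differed in what was given for 1 h on day 0: the vehicle DMSO or CX-5461, an inhibitor of RNA polymerase I, the enzyme that makes ribosomal RNA. The labels give each group 2 libraries, numbered 2 and 3, and state neither the dose of CX-5461 nor whether replicates came from separate embryos or cultures, so the p-values reflect the spread among these samples alone, which may be technical.

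The core proteins of this family bind fibrils of collagen and regulate how thick and how evenly spaced the fibrils grow, and the dermatan, chondroitin or keratan sulfate chains that many of them carry hold water and bind growth factors. Decorin, biglycan and asporin form class I, fibromodulin, lumican, prolargin and osteomodulin class II, osteoglycin belongs to class III and podocan to class V. In fibroblasts they are part of the ordinary secretory programme, and several of them bind TGF-beta.

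Depth differed little: reads recovered from the TPM values and exon lengths came to between 35.01 and 37.3 (in units of 1000000 reads) per library. Of the values used, 69.9% to 70.2% lay within 0.05 of a whole read. The scale of each library was chosen to bring values near whole reads, so this share is no independent check. Log2 levels correlated at r = 0.984 within the DMSO pair, 0.986 within the CX-5461 pair and 0.949 to 0.954 across groups. These are correlations over genes, and genes are no substitute for replicates. The library of DMSO replicate 3 differed from the rest in its mitochondrially encoded share of TPM, 15.3% against 9.20% to 9.96% in the other 3 libraries. For that reason the difference of each of the 9 genes is also given without it. All differences subtract the DMSO mean from the CX-5461 mean of log2(TPM + 1), a scale on which changes of low genes look smaller than they are. Genes were said to rise or fall where limma gave a Benjamini-Hochberg adjusted p under 0.05 over the 14621 genes. With 2 libraries on each side an exact two-sided permutation p is never smaller than 0.333, so none was computed.

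The family did not move as one. Of the 9 genes, 5 fell (Omd, Aspn, Lum, Prelp and Dcn), 1 rose (Ogn) and 3 did not pass (Bgn, Fmod and Podn). Among all genes tested 8.21% fell and 11.6% rose, 19.8% together. The median difference of the 9 genes was -0.58, against 0.07 over all genes tested, with single genes between -1.29 and 0.43. In 7 of the 9 the libraries of the groups did not overlap, 5 lower and 2 higher, and such separation was common: it held for 64.5% of all genes tested, 26.3% lower and 38.2% higher. In bulk RNA, fewer cells expressing a gene and less RNA per cell cannot be told apart.

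**Figure D1:**
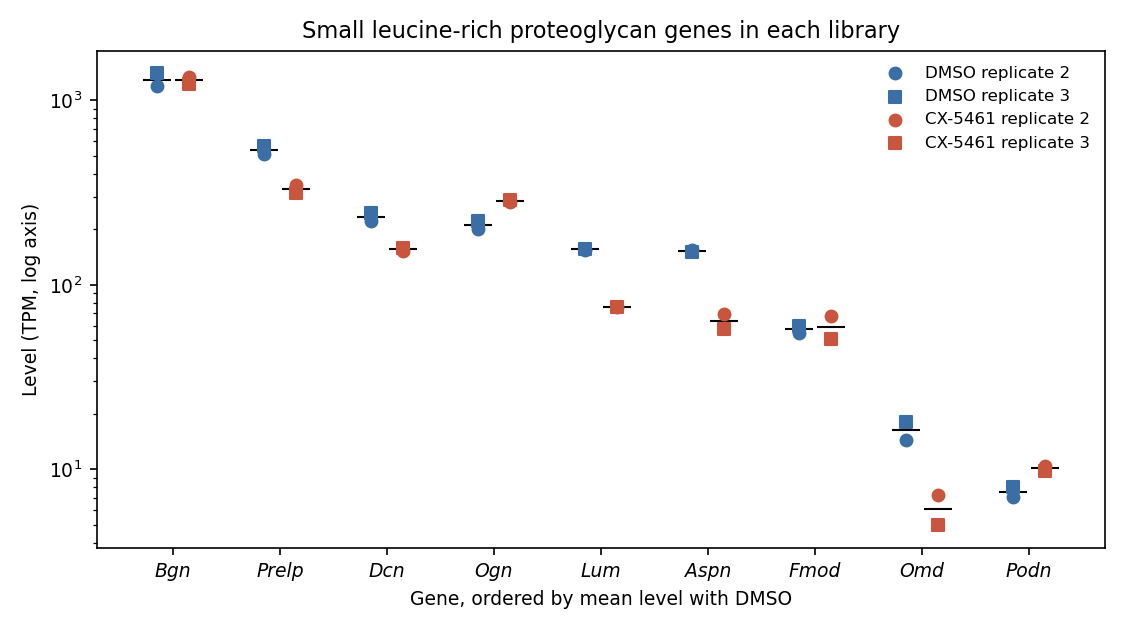
Level of each of the 9 genes in each library (TPM, log axis), ordered by the mean with DMSO; circles are replicate 2, squares replicate 3, and bars the group means. Bgn was the highest in both groups, at 1190.15 to 1401 TPM with DMSO and 1232 to 1347 TPM with CX-5461, and the CX-5461 points of Prelp, Dcn, Lum, Aspn and Omd lie below both DMSO points.

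The sequences upstream of 3 neighbouring genes that changed in opposite directions are shown first. Whether these sequences have a part in that contrast was not tested. Aspn, Omd and Ogn stand in a row on chromosome 13 (build mm10), all on the plus strand, with gaps of 14.9 kb between Aspn and Omd and 15.2 kb between Omd and Ogn. Aspn and Omd fell and Ogn rose, so the 250 bases before the start of each are printed 5′ to 3′ from RefSeq (GRCm38.p6), with motif matches in capitals. They lie at chr13:49544193-49544442, chr13:49582212-49582461 and chr13:49607765-49608014. Motif positions count from the RefSeq start, which for Ogn (49608015) lies 31 bases before the GENCODE start given below.
Aspn: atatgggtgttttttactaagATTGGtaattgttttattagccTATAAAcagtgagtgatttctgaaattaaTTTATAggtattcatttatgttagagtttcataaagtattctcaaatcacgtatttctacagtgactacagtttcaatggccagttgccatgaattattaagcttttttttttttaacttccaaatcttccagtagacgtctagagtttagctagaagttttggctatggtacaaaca
Omd: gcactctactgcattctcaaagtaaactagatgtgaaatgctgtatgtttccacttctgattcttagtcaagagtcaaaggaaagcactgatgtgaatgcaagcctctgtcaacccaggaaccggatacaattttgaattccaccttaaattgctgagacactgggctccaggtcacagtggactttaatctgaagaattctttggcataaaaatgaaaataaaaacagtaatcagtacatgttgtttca
Ogn: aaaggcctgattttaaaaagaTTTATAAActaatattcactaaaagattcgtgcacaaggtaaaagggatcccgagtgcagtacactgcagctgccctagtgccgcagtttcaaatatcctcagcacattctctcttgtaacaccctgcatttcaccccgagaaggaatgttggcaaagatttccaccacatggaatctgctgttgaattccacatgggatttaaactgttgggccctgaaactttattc
The motifs searched, on both strands, were the TATA box (TATAAA), the CCAAT box (CCAAT), the GC box (GGGCGG), the AP-1 site (TGANTCA) and the E-box (CACGTG). Matches to the TATA box occurred in Aspn and Ogn, far upstream of the start (from -207 and -178 in Aspn, and from -229 and -227 in Ogn, where the 2 matches overlap on opposite strands), and in 12.4% of the 32851 promoter windows of that length. CCAAT occurred in Aspn (from -229) and Prelp (from -15), and in 33.8% of all windows. GGGCGG occurred in Bgn and Podn and in 32.7% of all windows. The AP-1 site and the E-box occurred in none of the 7 members with an entry and in 6.75% and 6.02% of all windows. No match was found in Omd and Fmod. The 3 windows on chromosome 13 were poor in G and C, at 30.0% in Aspn, 38.4% in Omd and 42.0% in Ogn. The median over all windows was 52.4%. Of the other members with an entry, Fmod stood at 51.2%, Prelp at 55.6%, Bgn at 64.4%, and Podn at 78% and 64% in separate windows. Dcn and Lum were not matched in the promoter table.

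Asporin, a class I protein that binds collagen and TGF-beta, is encoded by Aspn (chromosome 13, 49544443 to 49567565). It was listed at 154 and 151 TPM with DMSO and at 69.9 and 57.7 TPM with CX-5461, so both treated libraries lay below both controls. Aspn fell to 41.8% of its DMSO level (log2 difference -1.25, SE 0.11, limma adjusted p = 0.00207). The call held whichever library was left out, with differences of -1.39 to -1.11, and it was -1.27 without DMSO replicate 3.

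Osteomodulin, a keratan sulfate protein of mineralised matrix, is encoded by the neighbouring Omd (49582462 to 49592822). Its level was 14.5 and 18.1 TPM with DMSO and 7.28 and 4.98 TPM with CX-5461. Omd, one of the 2 lowest of the 9 in level, fell to 37.7% of its DMSO level (log2 difference -1.29, SE 0.20, adjusted p = 0.0115). Its level rested on few reads: an estimated 334 and 470 with DMSO, where they did not come out whole, and 168 and 113 with CX-5461, a counting error of 9.41% at 113 reads. The size of its difference moved with the pseudocount, from -1.41 at 0.1 TPM to -0.94 at 5 TPM. The difference was -1.13 (adjusted p = 0.0693) without DMSO replicate 3 and -1.05 (adjusted p = 0.0734) without CX-5461 replicate 3, so the call ended in both cases.

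Osteoglycin, also called mimecan, a class III protein found in bone and in many connective tissues, is encoded by Ogn (49608046 to 49624501). Its level was 201 and 223 TPM with DMSO and 282 and 290 TPM with CX-5461. Both treated libraries therefore lay above both controls, and Ogn rose to 135% of its DMSO level (log2 difference 0.43, SE 0.09, adjusted p = 0.0246). Of the 9 alternative fits that kept all libraries and the threshold of 0.05, Ogn passed in 5, and each gene that fell passed in 9. The call ended without CX-5461 replicate 2 (0.45, adjusted p = 0.166) and without CX-5461 replicate 3 (0.41, 0.217), and held without DMSO replicate 3 (0.51, 0.0246). It ended as well under quantile normalization (0.32, 0.0888), after rescaling without mitochondrial and the 20 highest other genes (0.35, 0.0575), without a filter on low values (0.43, 0.0520) and in limma without its trend and robust options (0.43, 0.0687).

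The contrast within the row showed in the ratio of levels inside each library. Ogn stood at 1.30 and 1.48 times the level of Aspn with DMSO, and at 4.03 and 5.02 times with CX-5461. Against Omd the ratio was 13.9 and 12.3 with DMSO and 38.8 and 58.1 with CX-5461. Aspn and Omd kept a ratio that overlapped between groups, 10.7 and 8.33 with DMSO and 9.61 and 11.6 with CX-5461. A ratio within a library shows unequal change and is not altered by scaling the library.

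The genes around the row were read as well. All 3 lie inside Cenpp (49464023 to 49652785), a centromere protein gene on the opposite strand. Cenpp was listed at 11.5 and 11.9 TPM with DMSO and at 3.002 and 3.33 TPM with CX-5461 (log2 difference -1.61, adjusted p = 0.00201), and its call held whichever library was left out. Whether reads were counted by strand is not given in the sources used here, so reads of Cenpp and of the genes inside it cannot be told apart where exons overlap. Aspn and Ogn stood far above Cenpp in level. Omd stood closer to it, at a mean of 16.3 against 11.7 TPM with DMSO and 6.13 against 3.16 TPM with CX-5461. Ecm2, a related leucine-rich repeat gene 11.7 kb before Aspn, was below the filter at 0.480 and 0.533 TPM with DMSO and 0.103 and 0.175 TPM with CX-5461. Nol8, a nucleolar protein gene 28.6 kb after Ogn, stood at 15.9 and 16.1 TPM with DMSO and 15.2 and 14.6 TPM with CX-5461 and did not pass (log2 difference -0.10, adjusted p = 0.541).

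**Figure D2:**
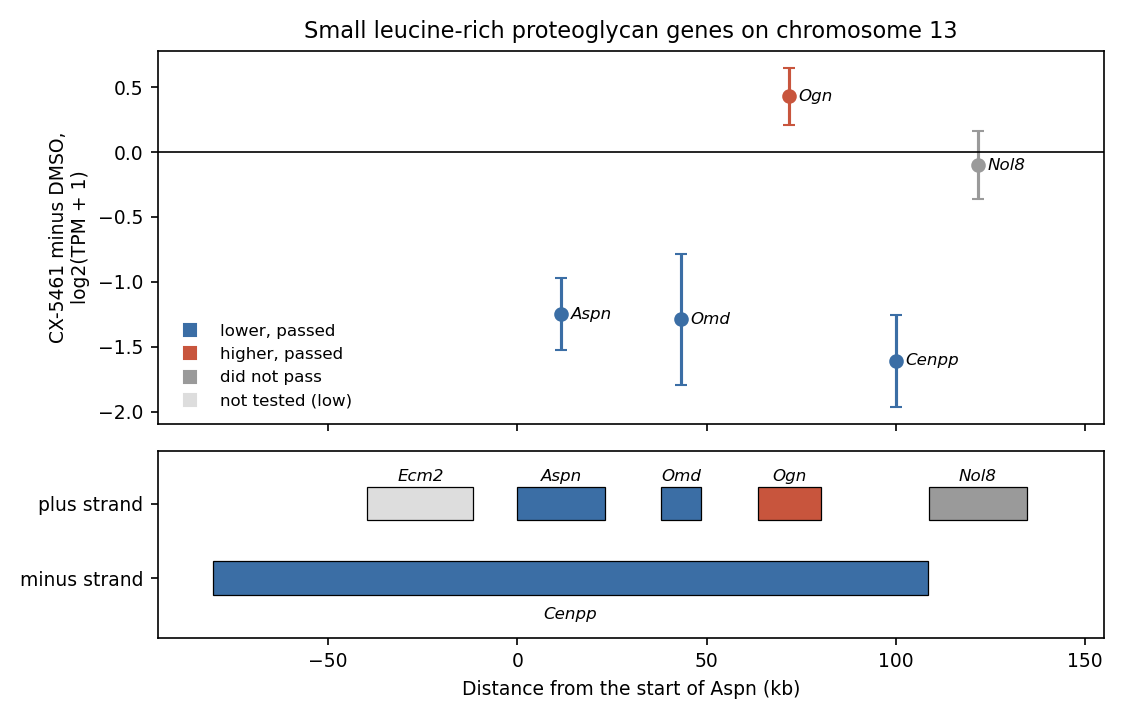
Upper panel: log2 difference (CX-5461 minus DMSO, with 95% intervals) of the genes of the chromosome 13 row at their midpoints, with Cenpp drawn to the right for legibility; lower panel: the genes to scale by strand, as kb from the start of Aspn. Aspn (-1.25), Omd (-1.29) and Cenpp (-1.61) lie below 0 and Ogn (0.43) above it.

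Lumican, a keratan sulfate protein needed for ordered fibrils in cornea and skin, is encoded by Lum (chromosome 10, 97565128 to 97572703). Its replicates lay close together, at 154 and 157 TPM with DMSO and at 75.7 and 75.6 TPM with CX-5461. Lum fell to 48.6% of its DMSO level (log2 difference -1.03, SE 0.08, adjusted p = 0.00131). The difference was -1.05 to -1.02 with 1 library left out, the narrowest such range of the 9, and the call held each time (-1.02 without DMSO replicate 3).

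Decorin, which decorates collagen fibrils and binds TGF-beta and the EGF receptor, is encoded by Dcn on the same strand, 47.0 kb before Lum (97479609 to 97518143). Its level was 222 and 246 TPM with DMSO and 153 and 159 TPM with CX-5461, and the groups did not overlap. Dcn fell to 66.6% of its DMSO level (log2 difference -0.58, SE 0.09, adjusted p = 0.0101), and the difference was -0.51 without DMSO replicate 3 (adjusted p = 0.0277). The call ended without CX-5461 replicate 2 (-0.56, adjusted p = 0.116) and without CX-5461 replicate 3 (-0.61, 0.117). The pair fell by unequal amounts: Dcn stood at 1.44 and 1.57 times the level of Lum with DMSO and at 2.02 and 2.10 times with CX-5461. Kera and Epyc, the keratocan and epiphycan genes that follow Lum, were below the filter, at 0.0759 to 0.513 TPM over all libraries.

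Prolargin, a heparin-binding protein that anchors basement membranes to connective tissue, is encoded by Prelp (chromosome 1, 133910304 to 133921414). Its level was 510.1 and 563 TPM with DMSO and 348 and 316 TPM with CX-5461. Gm15851, an antisense gene on the opposite strand, overlaps Prelp and has no deposited value. Their reads cannot be told apart where exons overlap if reads were not counted by strand. Prelp, the second highest of the 9 in both groups, fell to 61.9% of its DMSO level (log2 difference -0.69, SE 0.10, adjusted p = 0.00727), and the difference was -0.62 without DMSO replicate 3. The call ended without CX-5461 replicate 2 (-0.76, adjusted p = 0.0691) and without CX-5461 replicate 3 (-0.62, 0.115).

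Fibromodulin, which competes with lumican for collagen and is abundant in tendon, is encoded by Fmod (134037254 to 134048277), 116 kb from Prelp. Its level was 54.9 and 60.1 TPM with DMSO and 67.8 and 50.9 TPM with CX-5461. The CX-5461 libraries lay on either side of the DMSO pair, and Fmod did not pass (log2 difference 0.03, 95% interval -0.34 to 0.40, adjusted p = 0.894). It was 0.10 without DMSO replicate 3. The sign turned negative with median-of-ratios scaling (-0.03), with quantile normalization (-0.05) and after rescaling without the highest genes (-0.05), and without DMSO replicate 2 (-0.03) or CX-5461 replicate 2 (-0.17). Around these genes, Optc, the opticin gene next to Prelp, stood at 1.12 to 2.27 TPM and did not pass (log2 difference -0.34, adjusted p = 0.400). Btg2, an antiproliferative gene 26.9 kb after Fmod, rose from 86.2 and 71.8 TPM to 150.3 and 161 TPM (0.97 on the log2 scale, adjusted p = 0.00437).

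Biglycan, a class I protein close to decorin in sequence, is encoded by Bgn (chromosome X, 73483602 to 73495933). It was listed at 1190.15 and 1401 TPM with DMSO and 1347 and 1232 TPM with CX-5461. The groups overlapped, and Bgn did not pass (log2 difference -0.00, 95% interval -0.28 to 0.27, adjusted p = 0.984). Its sign changed without DMSO replicate 3 (0.11) or CX-5461 replicate 3 (0.06). Only 68 genes stood above it with DMSO and 75 with CX-5461. Its recovered reads did not come out whole in any library. Because Dcn fell, Bgn stood at 5.36 and 5.69 times the level of Dcn with DMSO and at 8.79 and 7.76 times with CX-5461.

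Podocan, a class V protein of vessel walls and other tissues, is encoded by Podn (chromosome 4, 108014791 to 108096445). Its level was 7.08 and 8.08 TPM with DMSO and 10.5 and 9.78 TPM with CX-5461, from 311 and 399 and from 460.0 and 421 recovered reads. The CX-5461 libraries lay above the DMSO libraries, but the difference did not pass (0.38, 95% interval 0.04 to 0.72, adjusted p = 0.109), nor did it with any 1 library left out (0.29 to 0.46, with 0.46 without DMSO replicate 3). The gene model of Podn overlaps Scp2, a lipid transfer protein gene on the same strand that also did not pass (log2 difference 0.34, adjusted p = 0.133), so reads in shared exons are uncertain.

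**Figure D3:**
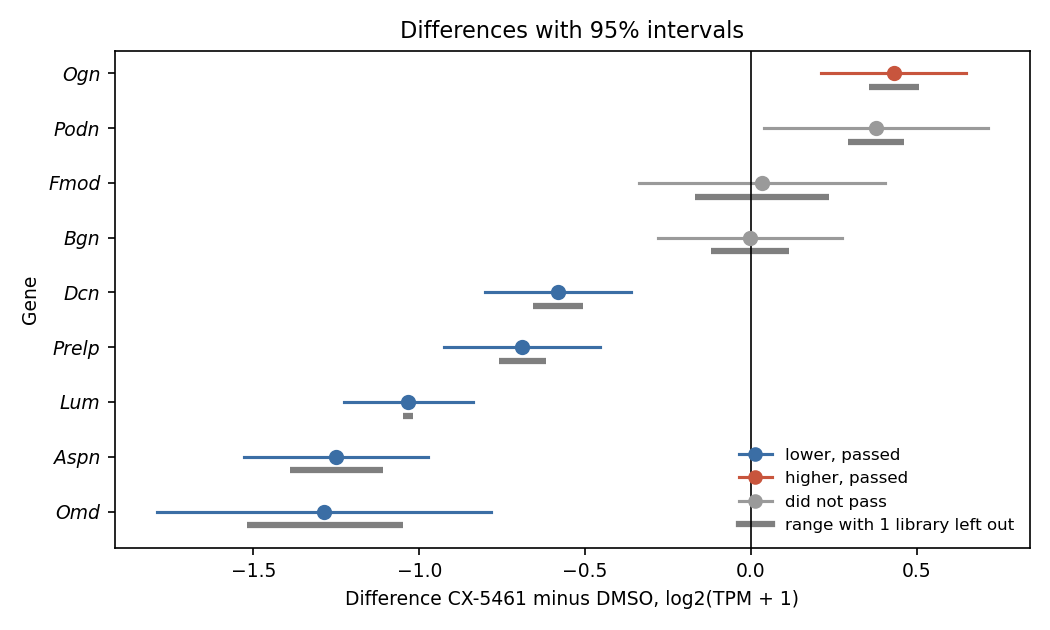
Difference of each of the 9 genes between groups (CX-5461 minus DMSO, log2(TPM + 1)) with 95% intervals from limma as thin lines and the range over fits with 1 library left out as thick bars. Omd (-1.29), Aspn (-1.25), Lum (-1.03), Prelp (-0.69) and Dcn (-0.58) lie wholly below 0, Ogn (0.43) and Podn (0.38) above it, and Bgn and Fmod straddle it.

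Summed over the 9 genes, the level was 2508 and 2828 TPM with DMSO and 2361 and 2196 TPM with CX-5461, or 0.251% and 0.283% against 0.236% and 0.220% of all TPM. Bgn made up 47.5% and 49.5% of that sum with DMSO and 57.0% and 56.1% with CX-5461. Without Bgn the sum was 1318 and 1427 TPM with DMSO and 1014 and 964 TPM with CX-5461. The order of the levels changed in the middle and at the low end. With DMSO it ran Bgn, Prelp, Dcn, Ogn, Lum, Aspn, Fmod, Omd, Podn, where Dcn and Ogn overlapped, as did Lum and Aspn. With CX-5461 Ogn stood next after Prelp, apart from Dcn (1.83 times its mean), Aspn and Fmod overlapped, and Podn stood above Omd (1.65 times its mean).

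By the distance of centred log2 levels over the 4 libraries, and leaving out predicted genes and pseudogenes, the genes most like Dcn were Sema3d (distance 0.03, log2 difference -0.57), Sh3d19 (0.03, -0.57) and Map1b (0.04, -0.57). Those most like Lum were AU020206 (0.04, -1.05), Itih5 (0.04, -1.07) and Nav3 (0.06, -0.997). Those most like Bgn were Dpt (0.01, -0.00), Mt1 (0.02, -0.02) and Pnisr (0.04, -0.03). With 4 libraries, such closeness says little more than that the genes share a difference between groups and between the replicates.

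The genes that make, bind and cleave these proteins were read from lists. Of 137 genes in 8 lists, 121 passed the filter, 18 rose and 13 fell, against 11.6% and 8.21% of all genes tested. At an unadjusted p under 0.05, the background for the counts given so below, 21.4% of all genes tested were higher and 14.5% lower. The 121 genes had a median difference of -0.02. The split depended on scaling, with 16 higher and 24 lower after rescaling without the highest genes, and over all genes it moved from 1694 higher and 1201 lower to 1568 and 1762. Without CX-5461 replicate 2 or 3 there were 3 and 2 higher and 4 and 3 lower, while calls over all genes fell to 315 and 237 higher and 408 and 364 lower. The calls of Col6a3, Eln, Kdr, Adamts4 and Prg4 held whichever library was left out. Those of Papss2 and Agrn ended without CX-5461 replicate 3, and those of the other genes named from these lists as passing ended without either CX-5461 library. Those of Chst11, Csgalnact1 and Slc35d1 ended also without DMSO replicate 3.

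Other leucine-rich repeat genes of the matrix were mostly low. Of 9 listed, 4 passed the filter, 1 rose and 0 fell (median -0.24), against 11.6% and 8.21% of all genes tested. Tsku (tsukushi, an extracellular inhibitor of BMP and Wnt signalling) rose from 100.7 ± 1.48 to 137 ± 5.23 TPM (SD, n = 2, 0.44 on the log2 scale, limma adjusted p = 0.0180), with an adjusted p of 0.127 and 0.195 without CX-5461 replicates 2 and 3.

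Of 23 tested genes for synthesis of the chondroitin and dermatan sulfate chains, 2 rose, 0 fell and 21 did not pass (median -0.05). Over all genes tested, 11.6% rose and 8.21% fell. Chst11, a chondroitin 4-O-sulfotransferase, rose from 24.7 ± 0.530 to 37.0 ± 2.94 TPM (0.56 on the log2 scale, adjusted p = 0.0163). Csgalnact1, which starts the chondroitin chain, rose from 24.3 ± 2.84 to 35.6 ± 1.09 TPM (0.53, 0.0267). Without CX-5461 replicate 3 their adjusted p was 0.154 and 0.191. At an unadjusted p under 0.05, 5 of the 23 genes were lower and 3 higher, against 14.5% and 21.4% of all genes. Under rescaling without the highest genes 4 genes of this list fell and 2 rose. With median-of-ratios scaling 3 fell and 2 rose, as with quantile normalization. Lower calls over all genes went from 1201 to 1762, 1655 and 1646 in these fits.

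Of 12 tested genes of keratan sulfate synthesis and tyrosine sulfation, 0 rose and 0 fell in limma (median -0.09). Over all genes tested, 11.6% rose and 8.21% fell. At an unadjusted p under 0.05, 2 of the list were higher and 4 lower (21.4% and 14.5% of all genes). The nearest to passing were the tyrosylprotein sulfotransferases, which sulfate tyrosines of fibromodulin, lumican and osteomodulin: Tpst1 stood at 43.5 ± 5.03 and 31.3 ± 3.06 TPM (-0.46 on the log2 scale, adjusted p = 0.0514) and Tpst2 at 80.8 ± 2.70 and 99.0 ± 1.48 TPM (0.29, 0.0589). Under median-of-ratios scaling Tpst1 passed (-0.53, 0.0175), and 4 genes of the list fell after rescaling without the highest genes.

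In the supply of activated sulfate and sugars, 2 of 10 tested genes fell and 1 rose (median -0.04). Over all genes tested, 8.21% fell and 11.6% rose. The synthases of the sulfate donor PAPS fell: Papss2 from 48.1 ± 0.737 to 27.7 ± 1.93 TPM (-0.78 on the log2 scale, adjusted p = 0.00511) and Papss1 from 164 ± 17.4 to 119 ± 1.84 TPM (-0.45, 0.0304). Slc35d1, a transporter of UDP-sugars into the endoplasmic reticulum, rose from 9.84 ± 0.316 to 16.2 ± 0.728 TPM (0.67, 0.0143). Without CX-5461 replicate 3 the adjusted p was 0.0719 for Papss2, 0.222 for Papss1 and 0.133 for Slc35d1.

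Among the collagens and other partners in the matrix, 8 of 20 tested genes fell and 3 rose (median -0.27). Over all genes tested, 8.21% fell and 11.6% rose. The level of Col6a3, a chain of the collagen VI that decorin and biglycan bind, fell from 387 ± 42.8 to 136 ± 5.93 TPM (-1.50 on the log2 scale, adjusted p = 0.000987). That of Eln, the elastin gene, went from 75.0 ± 17.4 to 22.9 ± 1.22 TPM (-1.65, 0.00316). Col11a1, a fibrillar collagen chain, fell from 94.9 ± 2.35 to 59.7 ± 2.22 TPM (-0.66, 0.00565) and Col6a2 from 196 ± 3.88 to 124 ± 6.74 TPM (-0.66, 0.00575), with an adjusted p of 0.0939 and 0.102 without CX-5461 replicate 3. Under median-of-ratios scaling 10 fell and 1 rose.

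Of 23 tested ligands and receptors that these proteoglycans bind, 4 rose and 0 fell (median 0.08), against 11.6% and 8.21% of all genes. At an unadjusted p under 0.05, 7 were higher and 0 lower, against 21.4% and 14.5% of all genes. Kdr, the VEGF receptor that decorin binds, rose from 6.29 ± 0.180 to 24.0 ± 0.197 TPM (1.78 on the log2 scale, adjusted p = 0.000729). Egfr, another receptor bound by decorin, rose from 30.4 ± 0.399 to 48.9 ± 4.90 TPM (0.67, 0.0107). Tgfb3 rose from 121 ± 4.56 to 171 ± 3.87 TPM (0.50, 0.0125) and Bmp4 from 62.3 ± 0.839 to 82.9 ± 0.231 TPM (0.41, 0.0218). Without CX-5461 replicate 3 the adjusted p was 0.115 for Egfr, 0.134 for Tgfb3 and 0.189 for Bmp4.

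Of 10 tested proteases, 2 rose and 1 fell (median 0.22), against 11.6% and 8.21% of all genes. Bmp1, which removes the propeptides of decorin, biglycan and osteoglycin, rose from 93.4 ± 8.70 to 151 ± 2.12 TPM (0.69 on the log2 scale, adjusted p = 0.00741) and Mmp2, a gelatinase, from 376 ± 30.6 to 506 ± 13.4 TPM (0.43, 0.0269). Adamts4, an aggrecanase that also cleaves small proteoglycans, fell from 17.4 ± 2.29 to 6.28 ± 0.0431 TPM (-1.33, 0.00322). Without CX-5461 replicate 3 the adjusted p of Bmp1 and Mmp2 was 0.104 and 0.234.

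Of 19 other proteoglycan core proteins tested, 5 rose and 2 fell (median 0.05), against 11.6% and 8.21% of all genes. Prg4, lubricin, rose from 25.3 ± 4.53 to 63.2 ± 0.123 TPM (1.30 on the log2 scale, adjusted p = 0.00316). The basement membrane proteoglycans agrin and collagen XVIII rose as well: Agrn went from 94.8 ± 10.5 to 189 ± 2.68 TPM (0.99, 0.00315) and Col18a1 from 85.8 ± 7.66 to 136 ± 6.54 TPM (0.67, 0.00906). Cspg4, the NG2 chondroitin sulfate proteoglycan, fell from 49.1 ± 3.59 to 33.1 ± 0.653 TPM (-0.56, 0.0144). Leaving out CX-5461 replicate 3 gave an adjusted p of 0.0547 for Agrn, 0.119 for Col18a1 and 0.123 for Cspg4.

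**Figure D4:**
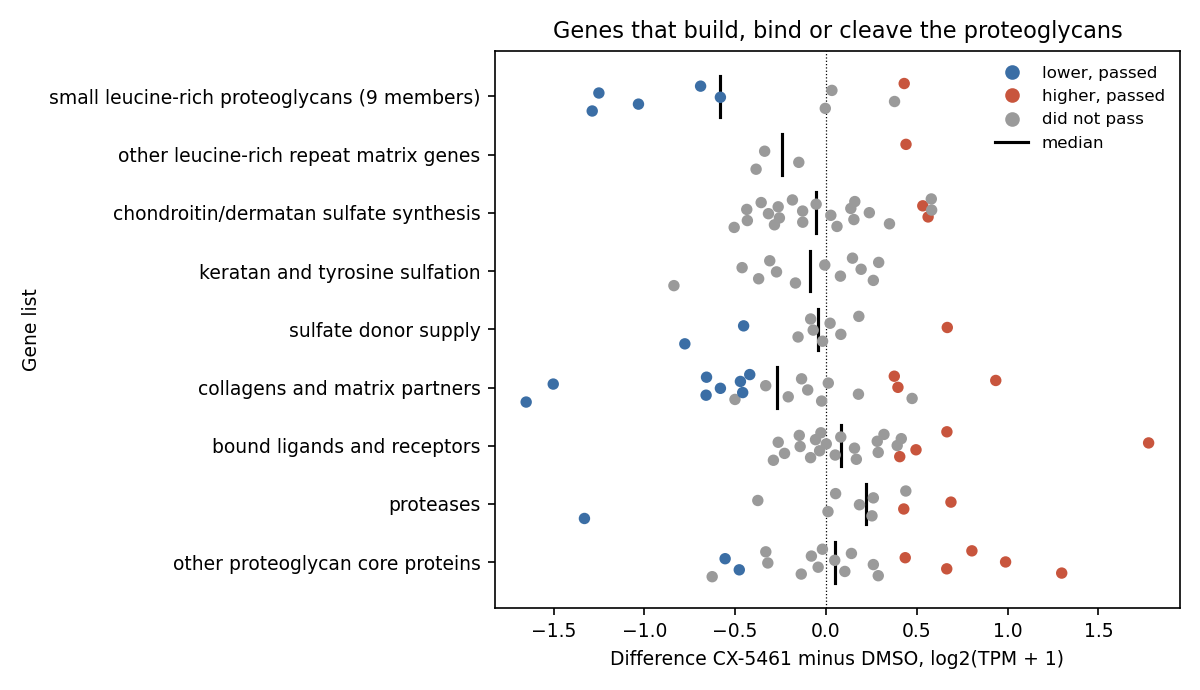
Log2 difference (CX-5461 minus DMSO) of each tested gene in the 9 small leucine-rich proteoglycans and 8 related lists, with the median of each list as a bar; blue and red points passed as lower and higher, grey points did not. The 9 members have a median of -0.58, and the lists of related genes medians between -0.27 and 0.22.

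Markers checked the labelled cell type and others that make these proteins. For the counts of marker calls, the background was 11.6% of all genes tested rising and 8.21% falling. All 11 fibroblast markers passed the filter, led by Col1a1, and 5 fell and 0 rose (median -0.36; 8 lower and 0 higher at an unadjusted p under 0.05, against 14.5% and 21.4% of all genes). Their summed level was 10557 to 13253 TPM with DMSO and 9554 to 10096 TPM with CX-5461. Their part in the falls of Dcn, Lum, Prelp, Aspn and Omd was not tested. Of 4 tendon cell markers 3 were tested and 3 rose, against 11.6% of all genes. The log2 differences were 0.61 for Scx (limma adjusted p = 0.0134), 0.47 for Tnmd (0.0381) and 0.92 for Mkx (0.0049). Whether these calls hold with 1 library left out was not examined. The summed level of the tendon markers was 61.6 to 64.1 TPM with DMSO and 95.8 to 98.5 TPM with CX-5461. Of 8 osteoblast markers 4 were tested, 1 rose and 0 fell, at 38.8 to 46.6 TPM and 47.3 to 59.7 TPM, with Ibsp at 0 in both DMSO libraries. Of 8 chondrocyte markers 4 were tested and 0 rose or fell (1 higher at an unadjusted p under 0.05, as were 21.4% of all genes). They summed to 23.7 to 23.9 TPM with DMSO and 25.3 to 27.0 TPM with CX-5461. Over all libraries Sox9 stood at 9.57 to 13.2 TPM and Col2a1 at 8.27 to 10.5 TPM, with Acan under 0.25 TPM throughout.

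Cells of other lineages were represented by low sums, with exceptions. Macrophage markers summed to 575 to 580 TPM with DMSO and 837 to 935 TPM with CX-5461, most of it from Lyz2. Of 5 tested, 2 rose, against 11.6% of all genes. Keratinocyte markers summed to 30.7 to 32.4 and 17.9 to 28.7 TPM (0 of 3 tested passed, with 1 higher and 1 lower at an unadjusted p under 0.05, against 21.4% and 14.5% of all genes). Endothelial markers summed to 50.6 to 51.0 and 57.2 to 58.3 TPM, with Pecam1 and Cdh5 under 0.33 TPM. Of 2 tested, Kdr rose, from 6.16 and 6.42 TPM with DMSO to 23.8 and 24.1 TPM with CX-5461. Tek fell, from 44.3 and 43.7 TPM to 33.9 and 32.6 TPM. Skeletal muscle markers summed to 74.8 to 77.5 and 49.2 to 56.2 TPM, with Myod1 and Myog at 0 in every library. Of 2 tested, Des rose, from 24.1 and 20.2 TPM with DMSO to 33.4 and 33.2 TPM with CX-5461. Acta1 fell, from 50.6 and 57.3 TPM to 22.8 and 15.9 TPM. Smooth muscle markers, which activated fibroblasts also express, summed to 3604 to 3802 and 2960.2 to 3540 TPM (0 of 4 passed, and 0 at an unadjusted p under 0.05). Adipocyte markers summed to 2.53 to 2.93 and 2.84 to 4.98 TPM (0 of 2 tested passed, and 0 at an unadjusted p under 0.05), with Lep at 0 throughout.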

How the data were processed

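Polyadenylated RNA of 4 libraries was sequenced, 2 with DMSO and 2 with CX-5461, and groups were taken from the sample titles. The authors deposited TPM values, each column summing to 1000000, and per the labels the reads were first cleaned with BMKCloud. Build mm10 is named in the submitters' processing notes. Aligner, counter and annotation: not given in the sources used here. Because TPM shares out a fixed total, more of the abundant genes means less of the others. 0 columns were unused.

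Values of log2(TPM + 1) for genes averaging 1 TPM or more entered limma 3.58.1 (R 4.3.3, trend and robust, 2 residual degrees of freedom, no covariate), and genes were called at a Benjamini-Hochberg adjusted p under 0.05. The procedure was tested on simulated data. Alternatives were pseudocounts of 0.1 and 5, no filter or 5 TPM, median-of-ratios, quantile and rescaled values, a plain limma fit with neither trend nor robust estimation, a replicate block, thresholds of 0.01 and 0.1, and fits lacking each library in turn, in which the remaining library of that group is taken to vary as the other group does. Reads were estimated as TPM times the GENCODE M21 exon length times a constant per library. That constant was fitted to bring as many values as possible near whole numbers. Of the 36 values of the 9 genes 27 lay within 0.05 of a whole number. Python 3.11.15 was used for tables.

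The 9 genes and the lists were chosen with earlier results of these data known. Named genes were the 9 members, up to 4 passing genes per list with the smallest adjusted p (2 where none passed), 3 most alike genes for Dcn, Lum and Bgn, and neighbours of the members. Marker lists covered fibroblast, tendon, osteoblast, chondrocyte, macrophage, keratinocyte, endothelial, skeletal and smooth muscle and adipocyte cells.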

Additional observations from a re-analysis of the deposited data

How the results depend on the processing

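The differences of Dcn, Lum, Prelp, Aspn, Omd, Ogn and Podn kept their direction under every alternative run. The falls of Dcn, Lum, Prelp, Aspn and Omd passed in each of the 9 alternative fits that kept all libraries and the threshold of 0.05, and the rise of Ogn in 5. At a threshold of 0.01 Dcn (adjusted p = 0.0101), Omd (0.0115) and Ogn (0.0246) did not pass. The count of members that fell, 5, was 3 at a threshold of 0.01 and 2 to 5 with 1 library left out (3 without CX-5461 replicate 2, 2 without CX-5461 replicate 3), where lower calls over all genes went from 1201 to 408 and 364. The count that rose, 1, was 0 with no filter, with quantile normalization, after rescaling, in limma without trend and robust options and at a threshold of 0.01, and 0 to 1 with 1 library left out. Of the related genes, 13 fell in the reported fit and 8 with no filter, 21 with median-of-ratios scaling, 21 with quantile normalization, 24 after rescaling, 8 without trend and robust options and 3 to 16 with 1 library left out. 18 rose, 10 without trend and robust options and 2 to 23 with 1 library left out. The cause was not tested. The differences of Bgn and Fmod, near 0, changed sign: Fmod was -0.0321 under median-of-ratios scaling, -0.0503 under quantile normalization and -0.0495 after rescaling. With 1 library left out Bgn ranged from -0.121 to 0.114 and Fmod from -0.169 to 0.235. The labels state no pairing, so the replicate numbers were not taken to pair the samples. Deviations of same-numbered libraries correlated at r = 0.03 over genes, which cannot settle pairing with so few libraries. With a replicate block in limma, 5 members fell and 1 rose (Dcn -0.58, adjusted p = 0.0110, Ogn 0.43, 0.0310). Over all genes the share of calls that were higher, 58.5%, was 50.0%, 49.9% and 47.1% under the 3 scalings and 39.4% to 69.7% with 1 library left out. Depth was lowest for Omd (113 to 470 reads) and Podn (311 to 460.0 reads).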
